A study of Brassica rapa subsp. pekinensis with 6 samples.

Results

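Among the genes of Chinese cabbage flower buds, 158 were present in every fertile library and had no read in any sterile library. They are the genes with identifiers starting with Bra without a single count in the 3 sterile libraries, with at least 1 raw CPM (the count divided by the library total, on the usual CPM scale) in each of the 3 fertile libraries, and with a mean of at least 10 raw CPM over the fertile libraries. The count table lists 43354 gene models, of which 41019 are Bra genes, and 16406 Bra genes met the fertile minimum. The counts of both groups chose these genes, so their loss in sterile buds is the definition of the set and not a finding, and no test of it is given. What follows describes how abundant they were, how they varied between fertile libraries, what lengths they had, how close other genes came to the rule, and what the genes with the next identifier numbers did.

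Flower buds of the genic male sterile line AB01 of Brassica rapa subsp. pekinensis were compared, with 3 libraries from sterile buds and 3 from fertile buds. All plants were raised in a greenhouse from vernalized seed, and the labels give no plant age, bud stage, treatment or date. The series title describes the sterility as inherited through multiple alleles, and the series design calls the replicates biological. Whole buds were used, so in these samples fewer cells of a type and less RNA per cell cannot be told apart.

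As background, pollen forms inside the anther, where the microspores are fed by the tapetum, the innermost layer of the anther wall. The tapetum supplies enzymes, wall precursors and the lipid and protein coat of the grain, and it then breaks down. Male gametophytes and the tapetum transcribe many genes that are used in few other places of the plant, and male sterile plants form no functional pollen. Neither deposited table pairs Bra identifiers with gene names, and the RefSeq gene table used for names matched 0 of the 158, so no role is given to any of them here.

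Sterile libraries held 31893913 to 33615379 counts and fertile libraries 27637426 to 35564895. With 97822324 sterile counts in all, a gene at 0 may still have had up to 0.0307 raw CPM, which is 3 counts over the group and covers counting error alone. Against this floor, the bounds for the 158 genes ran from at least 332-fold to at least 66419-fold lower in sterile buds, with a median bound of 1251-fold. Across the whole table, 15.1% of all genes tested were called at least 2-fold lower in sterile buds (quasi-likelihood test of edgeR, Benjamini-Hochberg adjusted p below 0.05). All 158 fertile-only genes were among them, which their selection fixed, and nothing is read from that count.

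Together the 158 genes had 0 counts in each sterile library, against 383759, 374431 and 518789 counts in fertile libraries 1, 2 and 3. That is 1.39% ± 0.0668 of fertile counts (SD, n = 3), or 2.14% for the genes chosen without sterile library 3. The share is uneven within the set. The 12 highest genes held 45.0% ± 0.487 of the set's fertile counts, and the first of them, Bra014410, held 14.7% ± 0.501 (SD, n = 3 each). The median gene stood at 38.4 raw CPM and the middle 50% of genes lay between 20.3 and 87.5 raw CPM. Bra genes at the same fertile minimum outside the set had a median of 28.2 raw CPM, and the 513 of them at least 100-fold lower by mean sterile raw CPM had one of 41.6, above that of the set.

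Bra014410, with a coding length of 1728 nt, had 0 counts in each sterile library, against 56670, 56543 and 73234 counts in fertile libraries 1, 2 and 3. It stood at 2037 ± 31.3 raw CPM in fertile buds (SD, n = 3), rank 14 among all Bra genes. Its fertile libraries lay within a few percent of each other, with a coefficient of variation of 1.54%. It was at least 66419-fold lower in sterile buds. The next genes of the set were far less abundant in fertile buds. Bra018841 (1551 nt) had 0 counts in each sterile library, against 666, 648 and 695 raw CPM in fertile libraries 1, 2 and 3, and was at least 21831-fold lower in sterile buds. Bra028699 (1092 nt) had 0 counts in each sterile library, against 629, 589 and 638 raw CPM in the fertile libraries, and was at least 20159-fold lower in sterile buds. Fertile library 2 was the lowest of the 3 for Bra014410, Bra018841 and Bra028699 alike.

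**Figure D1:**
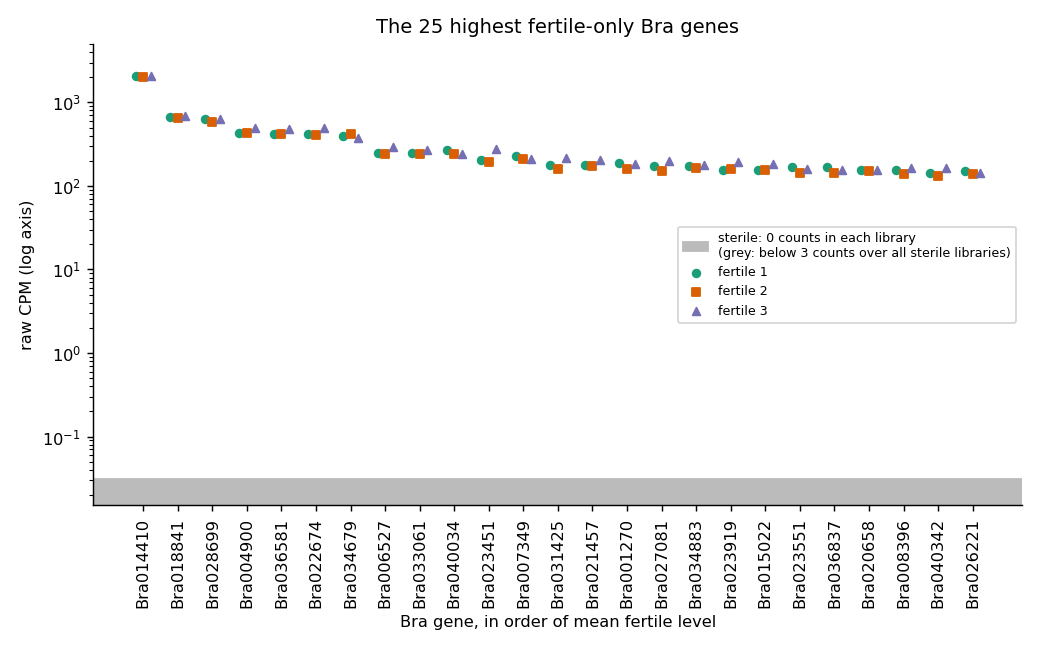
Raw CPM (log axis) of the 25 fertile-only Bra genes with the highest mean fertile level, one symbol per fertile library; the grey band marks levels below 3 counts over the 3 sterile libraries, where all 25 had 0 counts. The levels run from 2037 raw CPM for Bra014410 to 145 raw CPM for Bra026221, and the fertile libraries of each gene lie close together on this scale.

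Below these came 3 genes of like read number and very short coding models. Bra004900 (243 nt) had 0 counts in each sterile library, against 427, 426 and 489 raw CPM in fertile libraries 1, 2 and 3. Bra036581 (237 nt) had 0 counts in each sterile library, against 422, 413 and 486 raw CPM in the fertile libraries. Bra022674 (204 nt) had 0 counts in each sterile library, against 420, 406 and 491 raw CPM in the fertile libraries. All 3 were highest in fertile library 3, and their means of 447 ± 36.0, 440 ± 39.5 and 439 ± 45.7 raw CPM (SD, n = 3 each) differed by less than the spread between libraries. Within libraries, Bra004900 was above Bra036581 in each, while Bra022674 was the lowest of the 3 genes in fertile libraries 1 and 2 and the highest in fertile library 3.

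Of the remaining genes among the first 12, Bra034679 (1659 nt) had 0 counts in each sterile library, against 391.8, 424 and 377 raw CPM in fertile libraries 1, 2 and 3, and was one of 9 members that were highest in fertile library 2. Bra006527 (639 nt) had 0 counts in each sterile library, against 248, 240 and 292 raw CPM in the fertile libraries. Bra033061 (696 nt) had 0 counts in each sterile library, against 251, 240 and 272 raw CPM in the fertile libraries. Both were highest in fertile library 3. Bra040034 (1194 nt) had 0 counts in each sterile library, against 266, 242 and 241 raw CPM in the fertile libraries. Bra007349 (186 nt) had 0 counts in each sterile library, against 230, 211 and 211 raw CPM in the fertile libraries. In contrast to the other short models of this level, Bra007349 was highest in fertile library 1, as was Bra040034. Bra023451 (216 nt) had 0 counts in each sterile library, against 203, 195 and 274 raw CPM in the fertile libraries. Its coefficient of variation of 19.3% was the largest of the 158. Genes ranked 13 to 25 ran from 184 raw CPM (Bra031425) to 145 raw CPM (Bra026221).

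Per length, the order changed and short models came first. RPKM divides the reads by the length of the gene model as well as by the library total. For each of the 158 genes, deposited RPKM was proportional to raw CPM across the fertile libraries to within 1 part in 1000. Bra022674 led the set at 0 RPKM in each sterile library, against 2059, 1988 and 2407 RPKM in fertile libraries 1, 2 and 3. Bra036581 followed with 0 RPKM in each sterile library, against 1780, 1743 and 2049 RPKM in the fertile libraries. Bra004900 had 0 RPKM in each sterile library, against 1757, 1752 and 2011 RPKM in the fertile libraries. Bra022674 was the highest of the 3 within every fertile library, although its range overlapped theirs across libraries, and the means of Bra036581 and Bra004900 (1857 ± 167 and 1840 ± 148 RPKM; SD, n = 3 each) differed by less than the spread. Bra014410 averaged 1179 ± 18.1 RPKM and Bra007349 1168 ± 59.8 RPKM in fertile buds (SD, n = 3 each), and their libraries overlapped too. Both lay below all libraries of the first 3 genes.

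**Figure D2:**
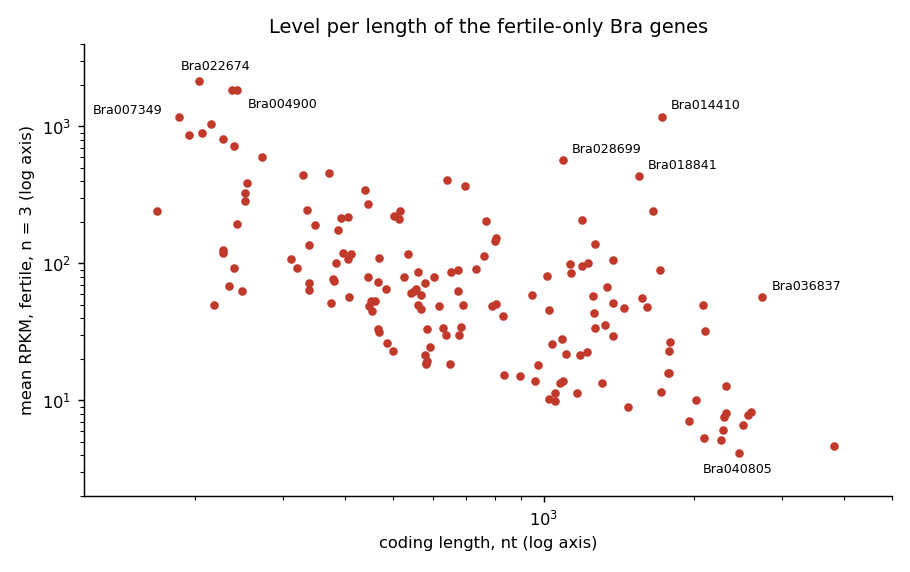
Mean RPKM over the 3 fertile libraries against coding length (both log axes), one point per fertile-only Bra gene; some genes are labelled. Short models lie highest, from 2151 RPKM for Bra022674 (204 nt) to 4.14 RPKM for Bra040805 (2460 nt), while Bra014410 stands out among the long ones at 1179 RPKM.

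Of the 12 fertile-only genes with the highest RPKM, 10 had a coding length under 300 nt. Spearman's rho between coding length and mean fertile RPKM was -0.63 over the 158 genes and -0.61 over 16246 other Bra genes at the same fertile minimum, where length is a divisor of RPKM by construction. For raw CPM, which does not contain length, rho was -0.16 in the set and 0.03 in the other genes. Among the 100 Bra genes with the highest fertile RPKM, 6 were fertile-only, and among the 100 with the highest fertile raw CPM, 2 were.

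The fertile-only genes had shorter coding models than the other Bra genes of fertile buds. Their median coding length was 644 nt, with quartiles of 409 and 1229 nt, whereas the other Bra genes at the same fertile minimum had a median of 1203 nt, with quartiles of 762 and 1785 nt. The 513 Bra genes of that minimum with a 100-fold or larger deficit in sterile buds by the ratio of mean raw CPM (floored at 3 sterile counts, with no test) but outside the set had a median of 1134 nt. The shortest model was Bra021816 (168 nt, 40.9 ± 2.28 raw CPM in fertile buds) and the longest Bra014931 (3813 nt, 17.7 ± 0.233 raw CPM in fertile buds; SD, n = 3 each). These lengths were recovered from counts and RPKM, and all 158 were multiples of 3. They are therefore read as annotated coding models without untranslated regions, although the gene models themselves are not given.

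By class of length, 21 of 474 Bra genes under 300 nt at the fertile minimum were fertile-only (4.43%). The share was 2.38% from 300 to 600 nt (53 of 2229), 0.783% from 600 to 1200 nt (43 of 5492), 0.519% from 1200 to 2000 nt (26 of 5011) and 0.469% above that (15 of 3198). Among Bra genes with 100-fold or larger falls in sterile buds, the set included, fertile-only genes made up 21 of 43 under 300 nt, against 15 of 94 at 2000 nt and over. The share of all Bra genes of the minimum was smaller at each step of length, while the share of those with 100-fold falls was smallest from 1200 to 2000 nt (26 of 184). Median fertile abundance did not fall in step with it: members under 300 nt had a median of 99.2 raw CPM, those from 300 to 600 nt 33.6, those from 600 to 1200 nt 34.3, those from 1200 to 2000 nt 61.5 and those above 18.7.

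**Figure D3:**
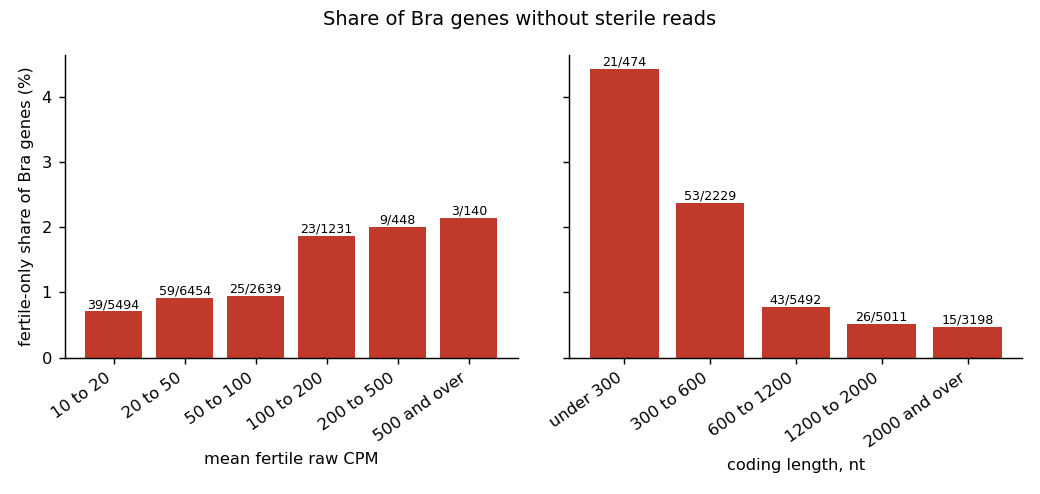
Fertile-only genes as a percentage of all Bra genes that met the fertile minimum, by mean fertile raw CPM on the left and by coding length on the right; the numbers over the bars are fertile-only genes and all Bra genes of the class. The share lies between 0.71% and 2.14% over the classes of level and between 0.469% and 4.43% over the classes of length.

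By level, the share of Bra genes without a sterile read was 0.71% from 10 to 20 raw CPM (39 of 5494), 0.914% from 20 to 50 (59 of 6454), 0.947% from 50 to 100 (25 of 2639), 1.87% from 100 to 200 (23 of 1231), 2.01% from 200 to 500 (9 of 448) and 2.14% at 500 and over (3 of 140). The share was therefore no smaller among abundant genes, although an abundant gene needs a larger fall to reach 0 counts. Set against all genes with 100-fold or larger falls, the proportion was lower at the top but did not fall step by step. Fertile-only genes were 39 of 177 such genes from 10 to 20 raw CPM, 23 of 72 from 100 to 200 and 3 of 57 at 500 and over. A 100-fold fall from a higher level leaves room for more sterile counts, so the class widens with level. The lower proportion at the top thus follows at least in part from that definition, and nothing is read from it. At 500 raw CPM and over, 17 Bra genes had 1 or 2 sterile counts in all.

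The genes just outside the rule show how near a count of 0 is to a count of 1 or 2. Besides the 158 genes at 0, 99 Bra genes of the fertile minimum had 1 count over all sterile libraries, 56 had 2, 191 had 3 to 10 and 326 had 11 to 100. Allowing fewer than 3 sterile counts gave 313 genes in place of 158 and 4.02% of fertile counts. The most abundant gene just outside was Bra033347 (1263 nt), with 0, 1 and 1 counts in sterile libraries 1, 2 and 3, against 2075, 2008 and 2126 raw CPM in the fertile libraries, a level like that of Bra014410. Bra029682 (1431 nt) had 1, 1 and 0 sterile counts, against a mean of 1572 raw CPM in fertile buds. Bra009265 had 2, 0 and 0 sterile counts, against a fertile mean of 1432 raw CPM. The next 2, Bra030510 and Bra001269, stood at 1402 and 1330 raw CPM in fertile buds. Each of these genes was above every member other than Bra014410, which stood at 2037 raw CPM. Bra033347, with a mean of 2069 raw CPM, was above Bra014410 too within every fertile library, although their ranges overlapped across libraries. At the lower edge, Bra024723, Bra009612 and Bra040805 were inside at 10.5, 10.4 and 10.2 raw CPM in fertile buds, while Bra009641, Bra002231 and Bra027758 were outside at 9.94, 9.91 and 9.91. In all, 114 Bra genes met the rule except for its minimum mean.

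**Figure D4:**
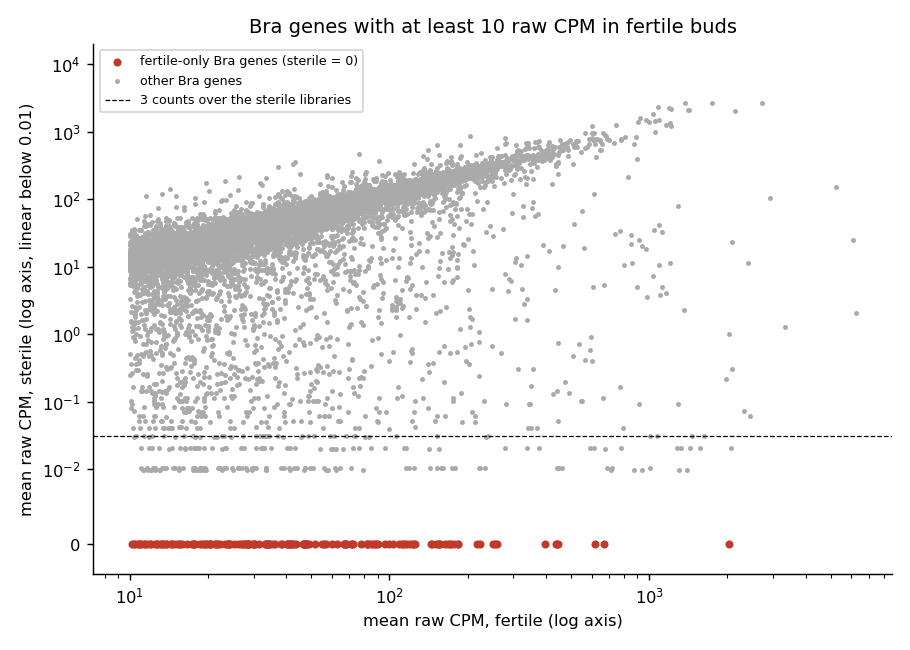
Mean raw CPM in sterile buds (log axis, linear below 0.01) against mean raw CPM in fertile buds (log axis) for the 16406 Bra genes at the fertile minimum; red points are the 158 fertile-only genes at 0, and the dashed line marks 3 counts over the sterile libraries. Grey points under the line include all genes with 1 or 2 sterile counts, which reach fertile levels as high as 2069 raw CPM. Sterile levels are means over libraries, so a gene with 3 counts, such as Bra040502, can lie just under the line too.

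The choice was also repeated with 1 library left out. The genes at 0 in the left-out sterile library are then the 158 themselves by definition, so only their share of the genes chosen without that library is informative. When the rule was applied to sterile libraries 2 and 3 alone, 194 genes met it, and in sterile library 1, which had no part in that choice, 158 of them (81.4%) had 0 counts, 32 had 1 and none had over 3. Without sterile library 2, 203 genes were chosen and 158 (77.8%) had 0 counts there. Without sterile library 3, 206 genes were chosen and 158 (76.7%) had 0 counts there, with a highest value of 4 counts; the chosen genes then held 2.14% of fertile counts. In each case the genes that were not at 0 in the left-out library held at most 4 counts there. In the fertile libraries, a choice on libraries 2 and 3 gave 158 genes, which in fertile library 1 stood at 9.05 raw CPM or more and at 0.826 to 1.20 times the mean of the libraries used. The ratios were 0.778 to 1.23 for fertile library 2 (160 genes) and 0.805 to 1.37 for fertile library 3 (158 genes).

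The reverse pattern was not found among Bra genes. With the groups exchanged, 0 Bra genes and 1 model outside the Bra set had at least 1 raw CPM in each sterile library, a mean of at least 10 there and 0 counts in all fertile libraries. The same rule as for the 158 genes was met by 53 models outside the Bra set, which are not described here.

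Within fertile buds, the fertile-only genes had a larger median spread between libraries than other genes of the same minimum. Their median coefficient of variation over the 3 fertile libraries was 7.36%, against 4.26% for the other Bra genes and 5.77% for the 513 other genes with falls of 100-fold or more. Without fertile library 3 these medians were 4.58% in the set, 3.31% in the other Bra genes and 4.86% in the 513, so the set then lay below the 513. For the same genes without fertile library 1, the medians were 7.94%, 3.65% and 5.58% in that order. Without fertile library 2 they were 5.63%, 3.44% and 4.02%, so the set was highest in both of these cases. Fertile library 2 had the lowest value for 116 of 158 members (73.4%), for 58.7% of those 513 genes and for 36.9% of the other Bra genes. Fertile library 3 had the highest value for 94 members (59.5%), fertile library 1 for 55 and fertile library 2 for 9. With TMM factors (trimmed mean of M values, a scaling that discounts the genes that differ most) in place of library totals, fertile library 2 was lowest for 106 members and fertile library 3 highest for 95. Each fertile library is a single sample, so no test of these differences is given.

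The library in which a member was highest went with its length. Of the 21 members under 300 nt, 17 were highest in fertile library 3 and 4 in fertile library 1. From 300 to 600 nt, 46 of 53 were highest in fertile library 3. At 2000 nt and over, 13 of 15 were highest in fertile library 1 and 1 in fertile library 3. The median log2 ratio of fertile library 3 to fertile library 1 was 0.20 in members under 300 nt, 0.15 from 300 to 600 nt, 0.02 from 600 to 1200 nt, -0.06 from 1200 to 2000 nt and -0.12 above. The other Bra genes ran the same way with smaller values, 0.11, 0.06, 0.01, -0.03 and -0.07 in the same classes. Over genes, which share the same libraries, Spearman's rho between coding length and that ratio was -0.67 in the 158 members, -0.51 in the 513 other genes with falls of 100-fold or more and -0.40 in all other Bra genes of the minimum. The trend with length thus appeared in other Bra genes too. In the same classes of length, the median coefficient of variation of members was 10.4%, 8.31%, 6.55%, 5.47% and 6.32%. For the other Bra genes it was 5.94%, 4.82%, 4.16%, 4.04% and 4.22%. By classes of level, members had the smaller median only at 500 raw CPM and over, 3.49% against 4.27%. The part of length in the spread of the fertile-only genes was not tested.

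**Figure D5:**
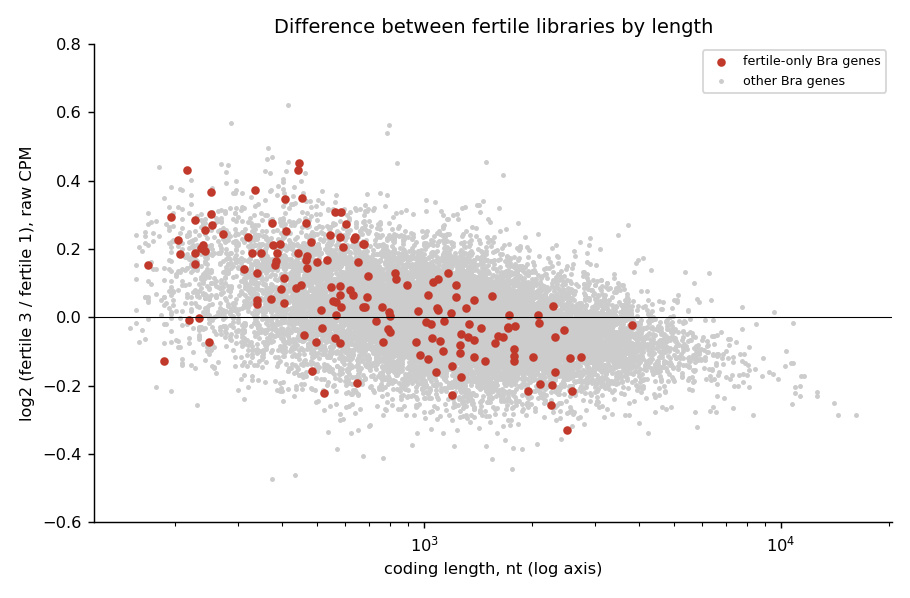
Log2 ratio of raw CPM in fertile library 3 to fertile library 1 against coding length (log axis), red for the 158 fertile-only genes and grey for other Bra genes of the same fertile minimum, 3 of which lie outside the plotted range. Short members lie mostly above 0 and members of 2000 nt and over mostly below it, along the trend of the grey points.

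The least variable members were long. Bra033059 (2085 nt) had 0 counts in each sterile library, against 102, 104 and 102 raw CPM in fertile libraries 1, 2 and 3, a coefficient of variation of 1.12%. Bra014931 and Bra034743 followed at 1.32% and 1.43%. After Bra023451, the most variable were Bra031659 (447 nt), at 19.2, 20.3 and 26.3 raw CPM in the fertile libraries, and Bra031778 (375 nt), at 18.9, 16.3 and 22.9. In both, fertile library 3 stood above the others.

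Some members carried consecutive identifier numbers. There were 4 pairs and 1 run of 3, which covered 11 of the 158 genes. The run held Bra024973 (582 nt), Bra024974 (561 nt) and Bra024975 (585 nt), which had 0 counts in each sterile library, against fertile means of 10.7 ± 1.28, 48.8 ± 5.51 and 19.5 ± 2.51 raw CPM (SD, n = 3 each). Their lengths were close and their levels did not overlap. The pair that includes one of the 12 highest genes is Bra040034 and Bra040035, both of 1194 nt, at 249 ± 14.2 and 114 ± 10.03 raw CPM in fertile buds (SD, n = 3 each), and both were highest in fertile library 1. The numbers of the other pairs begin with Bra001849, Bra005942 and Bra017514. Whether identifier numbers follow genome order is not stated in the labels, and reads shared by near-identical copies could have been split between such genes, which no sequence used here can show.

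The genes next in number to the members were not chosen by the rule and can be compared with the table as a whole. A larger share of them was called lower in sterile buds than of other Bra genes, and the difference between the shares was not tested. Of 297 such neighbours outside the set, 218 were tested and 51 (23.4%) were called at least 2-fold lower in sterile buds, where 13.5% of Bra genes outside the set were (edgeR, adjusted p under 0.05). At least 10-fold falls were called for 35 neighbours (16.1%), where the background was 6.42%. At least 2-fold rises were called for 9 (4.13%), where the background was 6.01%. With library totals in place of TMM factors, 49 neighbours (22.5%) passed as lower by 2-fold or more, where the background became 11.6%, and 22 (10.1%) as higher, where it became 9.85%. The median log2 fold change was -0.06 in the neighbours and 0.01 in the Bra genes outside the set. At a distance of 2 numbers, 37 of 225 tested genes (16.4%) had fallen by 2-fold or more and 25 (11.1%) by 10-fold or more. Rises of 2-fold or more were called for 19 (8.44%), a share above the background of rises. Genes next to 1 member and 2 numbers from another, such as Bra005944, are counted at both distances. The genes at the 2 distances are thus not separate groups. An association of changes between consecutive numbers over the whole table was known from earlier results that are not shown here. It was not measured again, and these counts may be part of it, so they are not separate support.

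Several neighbours came close to the rule themselves, and those named here were chosen after their values were seen. Bra033060 (2322 nt), whose number lies between the members Bra033059 and Bra033061, had 0, 2 and 0 counts in sterile libraries 1, 2 and 3, against 21367, 22388 and 27598 counts in the fertile libraries. Bra001269 (1194 nt), next to the member Bra001270, had 0, 1 and 1 counts in sterile libraries, against 37416, 38702 and 45070 in fertile libraries; the RPKM table lists it at 0 in all sterile libraries, so the tables differ there. Bra034680 (1662 nt), next to Bra034679 (1659 nt), had 3, 0 and 0 counts in sterile libraries, against 6536, 7539 and 7761 in fertile libraries. All 3 were thus far higher in every fertile library than in any sterile one. Bra005944 (624 nt), next to the member Bra005943, was the most abundant of those named, at 0.878, 1.36 and 1.58 raw CPM in sterile libraries 1, 2 and 3, against 3267, 3272 and 3424 in the fertile libraries (log2 fold change -11.65 ± 0.13 SE, edgeR adjusted p = 2.4e-23). On the other side of the same pair, Bra005941 (585 nt) moved in the opposite direction, with 54, 75 and 66 counts in sterile libraries and 5, 7 and 12 in fertile libraries (log2 fold change 2.60 ± 0.26 SE, edgeR adjusted p = 3.7e-08). Bra014411, the number after the most abundant member, was low in both groups, with 15, 18 and 28 counts in sterile libraries and 8, 20 and 13 in fertile libraries (log2 fold change 0.17 ± 0.33 SE, edgeR adjusted p = 0.68), and its libraries overlapped between the groups.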

How the data were processed

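Bud RNA was sequenced in 3 sterile and 3 fertile libraries, grouped by genotype label, with columns assigned through sample titles. The deposited tables hold raw read counts and RPKM, per the file headers; RPKM is scaled by the authors to model length and library total. Departures from the counts were found for 3 of 43349 shared identifiers. Bra001269 and Bra003491 are listed at 0 RPKM where they have 1 count, and Bra023854 was off by over 1 part in 1000. Lengths came from these same values, so the comparison covers only whether the ratio of RPKM to raw CPM was constant across libraries. Genes without fertile reads could not be compared in that way. The submitters' processing notes list Bowtie2 2.0.6 and TopHat2 2.0.9 without a role, with counter, strand setting, build and gene models not given in the sources used here, so overlapping genes cannot be told apart and near-identical copies may share reads. Coding length was recovered as count over RPKM and was a multiple of 3 for all 158 genes.

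Counts were tested with edgeR 4.0.16 in R 4.3.3 on the whole table (filterByExpr, 33150 genes; TMM; quasi-likelihood test, sterile relative to fertile, no replicate term; Benjamini-Hochberg; SE as log2 fold change over the square root of F), with code tested on simulated data. DESeq2 1.42.0 was an alternative. Chi-square over degrees of freedom was 2.95 to 4.74 for replicate pairs (1 for sampling alone), so none was counted as a repeat. Members, genes to name and comparisons were chosen with earlier results of these data known. Named in full are the 12 members highest in raw CPM and the 5 highest in RPKM; others lie at the edges of the rule, the extremes of length and spread, or in runs of consecutive numbers. Names were looked up in a RefSeq table of assembly CAAS_Brap_v3.01, which matched 1 Bra identifier.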

Additional observations from a re-analysis of the deposited data

How the results depend on the processing

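The number of fertile-only genes was 195 at a minimum of 5 raw CPM, 119 at 20, 164 with TMM-scaled CPM (all 158 kept) and 162 with RPKM in the minimum (145 shared), but 313 with fewer than 3 sterile counts allowed. Their share of fertile counts was 4.02% in that last case; the wider rule by its construction adds genes. With TMM factors the corresponding share was 1.55%, a change of scale. With 1 library left out at a time, there were 158 to 206 genes, 1.36% to 2.14% of fertile counts, a median coefficient of variation of 4.58% to 7.996%, 50 to 52 neighbours at least 2-fold lower, and 19146 to 20143 genes called. Calls over all genes stayed within 1.5 times 20712 in all alternatives run. With library totals the median log2 change over all genes was 0.31, and falls were then 57.2% of changes of at least 2-fold, not 71.5%. A replicate block gave 21212 genes called, 4995 at least 2-fold lower and 51 neighbours; the deviations of libraries with the same number correlated by 0.021, -0.037 and 0.097, so numbers were not taken as pairs. Among the 12 highest members, TMM factors moved the fertile level by more than 1 SD for 11. Depth limits absence to under 0.0307 raw CPM in sterile buds.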
